A study of Mus musculus with 2 samples.

Results

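The genes described here are 10 genes of the urea cycle and of ammonia detoxification, whose RNA was measured in liver areas of PiZ mice cut out by laser. The members were taken by name: Cps1, Otc, Ass1, Asl, Arg1, Nags, Slc25a15, Slc25a13, Gls2 and Glud1, wherever a probe set of the array was annotated with that gene alone. This held for 7 of the 10, out of 30142 genes named in this way on the array. Ass1 and Glud1 occur only in probe sets that also name a pseudogene, and Gls2 is named by no probe set in the annotation used here.

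PiZ mice, here on strain C57BL/6, carry as a transgene the human ATZ gene with its own promoter. ATZ is the Z mutant of alpha-1-antitrypsin, which aggregates in hepatocytes as globules, and the mice serve as a model of alpha-1-antitrypsin deficiency. They keep their own mouse Serpina1 genes. All mice were untreated, on standard chow and 3 months of age, so both groups share the transgene, the diet and the age. The groups are globule-containing and globule-free areas, told apart by morphology on stained frozen sections. For each group there is 1 array, hybridised with a pool from 2 mice, and the sources used here do not say whether the mice of both pools were the same. With 1 array per group no test is possible. Differences below therefore describe these arrays and cannot be set against a spread between mice. Among 177 genes with 2 probe sets, the differences from both probe sets were a median of 0.17 apart on the log2 scale, and 95% of these gaps were below 1.32.

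The urea cycle turns ammonia, which is toxic, into urea for excretion. In the mitochondria of hepatocytes Cps1 joins ammonia to bicarbonate, Otc passes the product to ornithine to make citrulline, and in the cytosol Ass1, Asl and Arg1 carry citrulline by way of argininosuccinate and arginine to urea and back to ornithine. The pathway is known as a function of periportal hepatocytes, while pericentral hepatocytes take up remaining ammonia by making glutamine.

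All 7 measured members had a lower signal in globule-containing areas than in areas without globules, while 45.5% of all genes above the floor did. Arg1 was 10.3-fold lower, Asl 9.44-fold, Cps1 5.17-fold, Otc 4.17-fold and Slc25a13 3.18-fold. Nags, at 1.92-fold lower, and Slc25a15, at 1.53-fold, lay within 2-fold. The median difference of the 7 members, as log2 globule-containing minus globule-free, was -2.06, against 0.05 over all 15023 genes whose mean log2 signal reached the floor of 4.76. Thus 5 of 7 members were at least 2-fold lower, where 5.26% of all genes above the floor were, and 4 of 7 were at least 4-fold lower, where 1.32% of all genes were. All 7 were at least 1.5-fold lower, against 11.9% of all genes. None of the 7 was at least 2-fold higher, a size reached by 6.47% of all genes. With the arrays centred on their medians, which shifts the median of all genes to -0.06, 6.59% of genes passed 2-fold downward and 5.25% upward. Nags then passed 2-fold as well, at -1.04. The share of genes at least 2-fold lower differed with the signal. It was 3.22% for genes with a mean log2 signal up to 8 (Nags), 9.15% from 8 to 12 (Asl and Slc25a13), 11.8% from 12 to 16 (Arg1, Otc and Slc25a15) and 8.59% at 16 or more (Cps1).

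**Figure D1:**
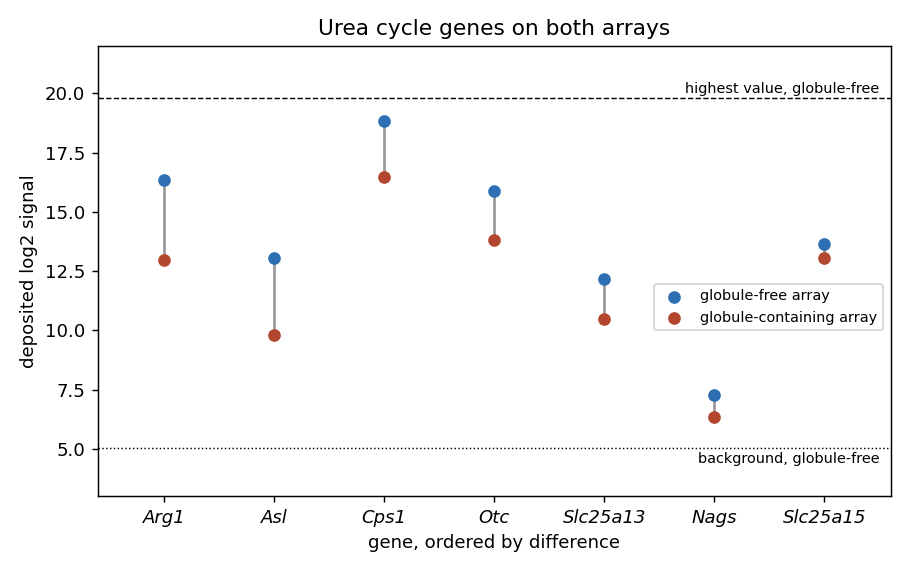
Deposited log2 signal (vertical axis) of the 7 members with a probe set of their own, on the globule-free (blue) and the globule-containing (red) array, 1 array each, ordered by their difference. The red point lies below the blue one for each gene, with the longest line for Arg1 (16.35 to 12.98) and the shortest for Slc25a15 (13.65 to 13.03). Dashed and dotted lines mark the highest value and the background of the globule-free array, and levels of different genes cannot be compared.

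Promoter windows of members with unlike differences are shown here because the measured members were all lower and the windows are where their transcription starts. RefSeq windows (GRCm38.p6) were at hand for 6 of the 10 members: Otc, Ass1, Nags, Slc25a15, Slc25a13 and Glud1. Each holds the 250 bases before a start and the 50 bases from the start on. Otc is 4.17-fold lower, Slc25a13 3.18-fold and Slc25a15 1.53-fold. The windows are chrX:10252055-10252354 on the plus strand for Otc, chr6:6217124-6217423 on the minus strand for Slc25a13, and chr8:22398572-22398871 on the minus strand for Slc25a15, which has another window as well. Capitals mark the matches to the motifs spelled out in the next paragraph.
Otc: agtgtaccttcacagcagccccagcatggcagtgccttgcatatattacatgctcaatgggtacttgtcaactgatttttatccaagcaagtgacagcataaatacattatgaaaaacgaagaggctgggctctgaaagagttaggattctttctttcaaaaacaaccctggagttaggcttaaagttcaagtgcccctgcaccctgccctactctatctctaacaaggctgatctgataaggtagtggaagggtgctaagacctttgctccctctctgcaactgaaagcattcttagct
Slc25a13: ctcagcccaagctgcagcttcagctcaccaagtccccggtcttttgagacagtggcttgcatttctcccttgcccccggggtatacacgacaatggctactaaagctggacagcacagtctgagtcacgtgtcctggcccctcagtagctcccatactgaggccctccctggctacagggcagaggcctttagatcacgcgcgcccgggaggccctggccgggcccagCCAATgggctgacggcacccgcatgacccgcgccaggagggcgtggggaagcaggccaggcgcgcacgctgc
Slc25a15: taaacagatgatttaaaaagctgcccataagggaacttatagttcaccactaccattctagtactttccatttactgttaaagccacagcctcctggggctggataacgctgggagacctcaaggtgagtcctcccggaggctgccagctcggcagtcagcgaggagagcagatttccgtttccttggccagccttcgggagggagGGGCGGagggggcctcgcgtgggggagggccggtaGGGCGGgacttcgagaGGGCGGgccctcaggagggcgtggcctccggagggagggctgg

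Each motif was searched on both strands of 32851 windows. Of all these windows, 10.8% hold the C/EBP motif TTNNGCAA and 0.475% the HNF4 motif CAAAGTCCA. The core shared by FOXO and FOXA factors, TGTTTAC, is in 3.65%. The cyclic AMP response element TGACGTCA is in 1.79% and its variant TGACGCAA in 0.490%. The glucocorticoid receptor motif TGTTCT, a part of the full site, is in 19.0%. The TATA box TATAAA is in 13.6%, the box CCAAT in 37.4% and the GC box GGGCGG in 35.7%. The Otc window held none of these motifs and had a GC content of 44.3%, below the median of 52.7% over all windows. The Slc25a13 window, at 65% GC, held 1 CCAAT, from 22 to 18 bases before the start. The printed Slc25a15 window, at 60.7% GC, held 3 copies of GGGCGG, and its other window, at 79% GC, held 5, of which 2 overlap each other. The Nags window, at 57.7% GC, held 2 copies, that of Ass1, at 74%, 1 copy, and that of Glud1, at 81%, 3 copies. No window of a member held a match to the C/EBP, HNF4, FOXO and FOXA, cyclic AMP or glucocorticoid motifs above. These are matches of letters within 300 bases and say nothing of a factor or of more distant sites.

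Of the mitochondrial enzymes, Cps1, carbamoyl phosphate synthetase, makes the entry step of the cycle. Its log2 signal (probe set TC0100000572.mm.1) was 18.85 in globule-free and 16.48 in globule-containing areas, a difference of -2.37. The globule-containing signal amounts to 19.3% of the globule-free one. The globule-free value lay 0.95 below the highest value of that array (19.80), and the globule-containing value 3.45 below the highest value of its own (19.93). Whether the nearness to the ceiling on the globule-free array compressed this fold was not tested. Of 326 genes with a mean log2 signal of 16 or more, Cps1 had the lowest difference. In that band the median difference was 0.22.

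Otc, ornithine transcarbamylase, forms citrulline in the mitochondria and is encoded on the X chromosome. Its log2 signal (TC0X00000125.mm.1) was 15.87 in globule-free and 13.81 in globule-containing areas, a difference of -2.06, which leaves 24.0% of the globule-free signal. Nags makes N-acetylglutamate, the activator that Cps1 requires. The log2 signal of Nags (TC1100001681.mm.1) was 7.29 in globule-free and 6.35 in globule-containing areas, a difference of -0.94. This dimmest of the measured members lay 1.5 above background in globule-containing and 2.27 above it in globule-free areas, so both values were above background but closer to it than those of the other members. Of all genes above the floor, 6.04% had a lower difference than Nags, 1.21% a lower one than Otc and 0.839% a lower one than Cps1.

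Of the cytosolic enzymes, Arg1 and Asl had the largest differences of the 7 members. Arg1, liver arginase, splits arginine into urea and ornithine. Its log2 signal (TC1000001897.mm.1) was 16.35 in globule-free and 12.98 in globule-containing areas, a difference of -3.37, and 43 of the 15023 genes above the floor had a lower one. Asl, argininosuccinate lyase, releases arginine and fumarate from argininosuccinate. Its log2 signal (TC0500003314.mm.1) was 13.06 in globule-free and 9.82 in globule-containing areas, a difference of -3.24, and 49 genes had a lower one. The globule-containing signals were 9.69% of the globule-free signal for Arg1 and 10.6% for Asl. Both values of both genes lay at least 3.45 below the ceiling and well above background.

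Ass1, argininosuccinate synthetase, joins citrulline to aspartate. No value can be given to it alone, since its probe set (TC0200000551.mm.1) also names Gm5424, listed by RefSeq as a transcribed pseudogene. The signal of this probe set was 18.75 in globule-free and 18.14 in globule-containing areas on the log2 scale, a difference of -0.61, and the globule-free value lay 1.06 below the ceiling. A separate probe set that names Gm5424 alone (TC1000000578.mm.1) had 18.70 in globule-free and 17.45 in globule-containing areas, a difference of -1.25. The probe sets thus point the same way but by 1.52-fold and 2.39-fold, and how far each reports Ass1 RNA was not tested.

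The carriers link the mitochondrial and cytosolic steps. Slc25a13, citrin, exports the aspartate that Ass1 uses. Its log2 signal (TC0600001813.mm.1) was 12.15 in globule-free and 10.48 in globule-containing areas, a difference of -1.67, and 2.03% of all genes had a lower one. Slc25a15 brings ornithine into the mitochondria in exchange for citrulline. Its log2 signal (TC0800001867.mm.1) was 13.65 in globule-free and 13.03 in globule-containing areas, a difference of -0.61, and 11.3% of all genes had a lower one, so that it was the member closest to no difference. Slc25a12, the aspartate and glutamate carrier related to Slc25a13, had 5.59 in globule-free and 6.23 in globule-containing areas and was thus 1.56-fold higher in the latter. Its globule-free value lay only 0.57 above background. Slc25a2, the ornithine carrier related to Slc25a15, lay below background on both arrays.

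The enzymes that release ammonia from glutamine and glutamate could be followed only in part. Gls2, the liver glutaminase, has no value here. Glud1, glutamate dehydrogenase, shares its probe set (TC1400000373.mm.1) with Gm3219, listed by RefSeq as a transcribed pseudogene. Its log2 signal was 16.30 in globule-free and 16.12 in globule-containing areas, a difference of -0.19. With probe sets naming several genes counted, and so those of Ass1 and Glud1, 5 of 9 members were at least 2-fold lower. This compares with 5.12% of all genes under that setting. The median difference of the 9 was -1.67.

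**Figure D2:**
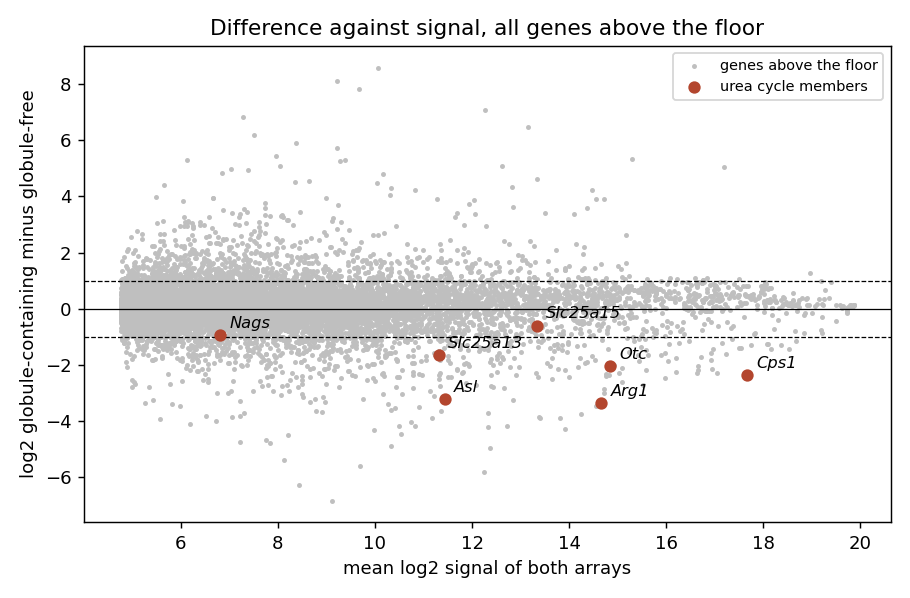
Difference between the arrays (vertical axis, log2 globule-containing minus globule-free) against the mean log2 signal of both arrays (horizontal axis) for 15023 genes above the floor, in grey, with the 7 members in red. Dashed lines mark 2-fold. Cps1 sits at the lower edge of the cloud on the right, Arg1 and Asl lie below -3, and Nags and Slc25a15 lie between the dashed line and 0.

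Other genes of ammonia and nitrogen handling were described from 7 lists of 86 genes in all, of which 65 had a probe set of their own above the floor. In globule-containing areas 22 of these 65 (33.8%) lay at least 2-fold below globule-free areas, 3 at least 2-fold above them and 40 within 2-fold, and the median difference was -0.48. Levels below are log2 signals, with globule-free areas given before globule-containing ones unless stated. The background over all genes is the 5.26% lower and 6.47% higher given above.

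Mitochondrial carriers and carbonic anhydrases had a median of -0.62, or -0.21 with no floor, and 2 of 7 genes were at least 2-fold lower. None of them was 2-fold higher. Car5a, the mitochondrial carbonic anhydrase that supplies bicarbonate to Cps1, had 8.83 against 7.11, a difference of -1.73. Car5b, a second mitochondrial carbonic anhydrase, differed by -1.35. Slc25a1, the citrate carrier, differed by -0.78.

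Enzymes of transamination and aspartate supply had a median of -0.99, and 6 of 12 were at least 2-fold lower. None was 2-fold higher. Got1, the cytosolic aspartate aminotransferase, had 12.78 against 8.29 and a difference of -4.49. Its mitochondrial counterpart Got2 had 12.32 against 11.96 and differed by -0.35. Agxt, the alanine and glyoxylate aminotransferase, differed by -3.63. Fh1, fumarase, which takes up the fumarate that Asl releases, differed by -1.70, and Tat, tyrosine aminotransferase, by -1.41. The cytosolic malate dehydrogenase Mdh1 differed by -0.97 and the mitochondrial Mdh2 by 0.58. The cytosolic alanine aminotransferase Gpt differed by -0.01 and the mitochondrial Gpt2 by -1.01. The cytosolic gene thus had the lower difference in the Got and Mdh pairs and the higher one in the Gpt pair.

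Ammonia-releasing and amino acid degrading enzymes had a median of -1.12, and 7 of 13 were at least 2-fold lower. None was 2-fold higher. Hal, histidine ammonia lyase, had the lowest difference, at -5.61. Ftcd, which acts further along histidine breakdown, differed by -3.40. Gldc and Amt, both of the glycine cleavage system, differed by -2.43 and -1.12, while Gcsh of the same system differed by -0.10. Aass, of lysine breakdown, differed by -2.09.

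Genes of arginine and ornithine use went both ways, with 3 of 9 at least 2-fold lower, 1 (Srm) 2-fold higher and a median of -0.62. That median was -0.07 with no floor and -0.27 with probe sets of several genes counted. Slc7a2, a cationic amino acid transporter that carries arginine and ornithine, had 15.23 against 13.13, a difference of -2.10. Agmat, agmatinase, differed by -1.72 and Gamt, of creatine synthesis, by -1.29. Srm, spermidine synthase, was 2.00-fold higher. Oat, the pericentral ornithine aminotransferase, had 12.71 against 11.84, a difference of -0.88. Arg2, the mitochondrial arginase, lay at or below background on both arrays.

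Glutamine handling had a median of -0.54, with 2 of 6 genes at least 2-fold lower. That median was -0.17 with no floor, -0.16 with probe sets of several genes counted and -1.45 with the floor at the 75th percentile. Slc38a3, the main glutamine transporter of hepatocytes, had 17.21 against 14.72, a difference of -2.48. Slc38a2 was 4.01-fold lower, and Slc38a4, at 18.27 against 17.36, differed by -0.90, both being amino acid transporters of the same family. Slc1a5, a neutral amino acid transporter, differed by -0.17. Glul, the glutamine synthetase of pericentral hepatocytes, is named only in a probe set that also names the microRNA Mir8114. That probe set had 9.84 against 10.64 and was 1.74-fold higher in globule-containing areas. Rhbg, an ammonium transporter, shares its probe set with Tsacc, and that probe set, at 5.54 against 6.95, was 2.67-fold higher. Its globule-free value lay only 0.52 above background.

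Of 6 urea and water channels, 2 were above the floor. Aqp8, a water channel that also passes ammonia, had 5.81 against 7.79, a 3.94-fold higher signal, with the globule-free value 0.79 above background. Aqp9, a channel of hepatocytes for water, glycerol and urea, had 8.64 against 8.82. The urea transporters Slc14a1 and Slc14a2 lay below background on both arrays.

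Regulators of the pathway mostly lay within 2-fold, at 13 of 16, with a median of -0.17. Onecut1, which encodes HNF6, differed by -2.19 and Ppargc1a, a coactivator of fasting metabolism, by -2.04. Creb1, the cyclic AMP response factor, was 2.04-fold higher. Hnf4a differed by -0.75 and Cebpa, which encodes C/EBP alpha, had 12.95 against 12.34, a difference of -0.61. Gcgr, the glucagon receptor, had 8.60 against 8.99, a difference of 0.39.

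**Figure D3:**
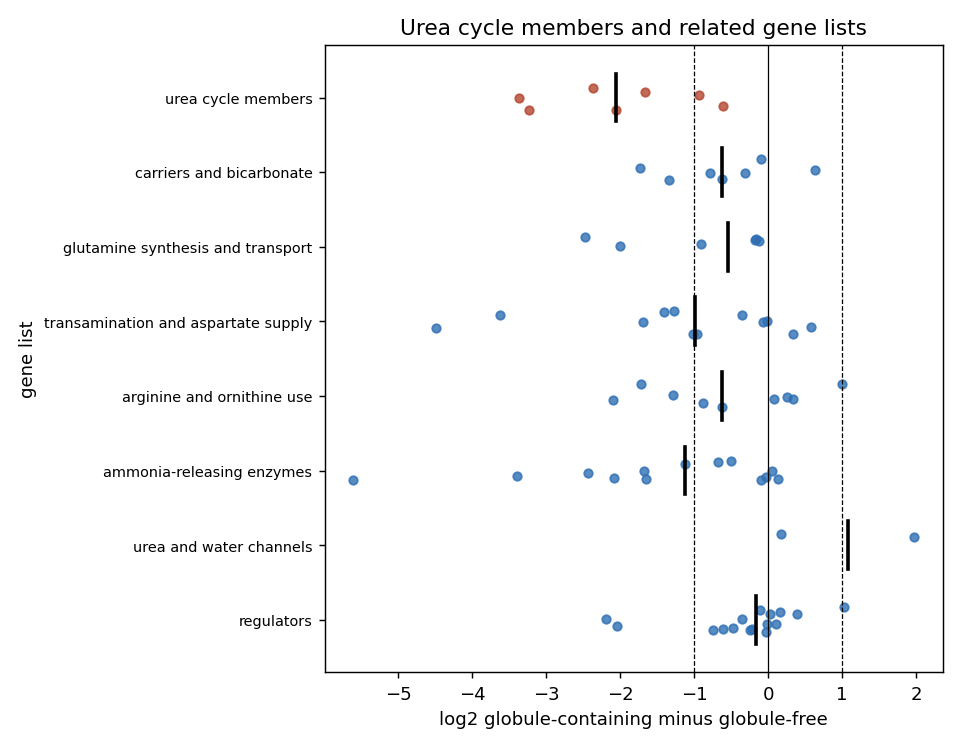
Difference between the arrays (horizontal axis, log2 globule-containing minus globule-free) for each gene above the floor in the members (red) and in 7 related lists (blue), with the median of each list as a black bar and dashed lines at 2-fold. The members have the lowest median, at -2.06, and the regulators lie around 0, at -0.17, whereas the 2 channel genes lie above 0.

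Both arrays are labelled as hepatocyte areas, and hepatocyte genes had high signals on both. Of the hepatocyte markers, Alb and Ahsg lay at the ceiling on both arrays, and the other 6 measured ones ran from -0.87 for Fgb to 0.08 for Cyp3a11, with a median of -0.45 and none at least 2-fold apart. Of these 6, 5 lay nearer the ceiling of the globule-free array than Cps1 did, with Ttr only 0.05 below it, so their small differences have little weight. The log2 of the summed signal of the 6 was 21.59 in globule-free and 21.30 in globule-containing areas. When all differences were taken relative to this marker median, an alternative added once the data had been seen, the members' median was -1.61. Then 5 of 7 members and 2.68% of all genes were at least 2-fold lower, with the same limit. In such tissue areas, fewer cells of a type and less RNA per cell cannot be told apart.

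The differences of 6 of the 7 members lay in the range of other periportal genes, and Slc25a15, at -0.61, lay above it. Of 10 periportal markers outside nitrogen metabolism, 9 were at least 2-fold lower, where 5.26% of all genes above the floor were. The median of these markers was -2.12, against -2.06 for the members. They ran from -3.91 for Pigr to -0.81 for Hsd17b13, with -2.72 for Pck1 and -2.31 for Cyp2f2, and the log2 of their summed signal was 19.04 against 16.70. Of 10 pericentral markers, none was 2-fold lower and Gulo alone was 2-fold higher. They had a median of 0.36, or 0.12 with the floor at the 75th percentile. Axin2 and Lgr5 lay below background in globule-free areas, and Cyp2e1 lay 0.95 below the ceiling there. The log2 of the summed signal of the pericentral markers was 19.41 against 19.66. Cyp2e1 alone made up 61.8% of that sum in globule-containing areas. Lobular position and the presence of globules cannot be told apart in these pools.

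Markers of other cell types were also unequal between the arrays. All 9 stellate cell and fibroblast markers above the floor had a signal 2-fold or more above that of globule-free areas, and their median was 2.48. Of these, Col1a2 lay below background in globule-free areas, and Lrat, Col1a1, Col3a1 and Pdgfrb lay 0.62 to 0.75 above it. Des lay below background on both arrays. The log2 of the summed signal of all 10 markers, Des included, was 12.24 against 15.64. Macrophage markers went both ways, with 6 of 14 passing 2-fold upward and 4 downward, against 6.47% and 5.26% of all genes. Their median was 0.08, and 1.94 with the floor at the 75th percentile. The log2 of their summed signal was 13.95 against 18.35, and Lyz2 alone made up 76.5% of the sum in globule-containing areas. Such sums add probe sets of unlike brightness and follow the brightest gene of a list. Endothelial markers all lay within 2-fold, with a median of -0.10, and the log2 of their summed signal was 11.45 against 11.64. The part of other cells in the members' differences was not tested.

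Arg1 is known in alternatively activated macrophages as well as in hepatocytes. Cd68, a marker of macrophages, had 10.07 against 13.80, and Adgre1, another, had 7.57 against 7.69. Mrc1, a receptor of alternatively activated macrophages, had 10.01 against 9.51, and Retnla, a secreted protein of these cells, lay below background on both arrays. Of all 8 markers of alternatively activated macrophages, 4 were above the floor, from -0.50 for Mrc1 to 8.11 for Gpnmb. Gpnmb lay only 0.14 above background in globule-free areas. Between them were Clec10a, at 0.04, and Trem2, at 0.62, which lay below background in globule-free areas. The log2 of the summed signal of the 7 measured markers was 10.22 against 13.39. Gpnmb alone made up 92.0% of that sum in globule-containing areas. Of the 14 macrophage markers, 4 passed 2-fold downward, with differences of -3.05 for Clec4f, -2.44 for Vsig4, -1.98 for Timd4 and -1.54 for Marco. Another 6 passed 2-fold upward, among them Lyz2 at 5.34, Ctss at 5.08, Cd68 at 3.73 and Tyrobp at 3.63. What macrophages add to the Arg1 signal was not tested.

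Neutrophil markers had 4 of 7 genes above the floor, and they split. S100a8 differed by 5.92 and S100a9 by 4.54, while Ly6g, at 0.27, and Csf3r, at 0.09, lay within 2-fold, and Mpo and Elane lay below background. In globule-free areas S100a8 lay only 0.40 above background, Csf3r 0.31 and Ly6g 0.05. The median of the 4 above the floor was 2.41, but 0.27 with no floor. The log2 of the summed signal of all 7 was 7.92 against 12.19. Cholangiocyte markers had 3 of 6 genes above the floor, of which Krt19 and Epcam lay below background in globule-free areas, and Krt7 and Cftr lay below background on both arrays. Of 8 lymphocyte markers only Nkg7 was above the floor, and it lay below background in globule-free areas, and of 6 erythroid markers only Alas2, with a difference of -0.71.

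**Figure D4:**
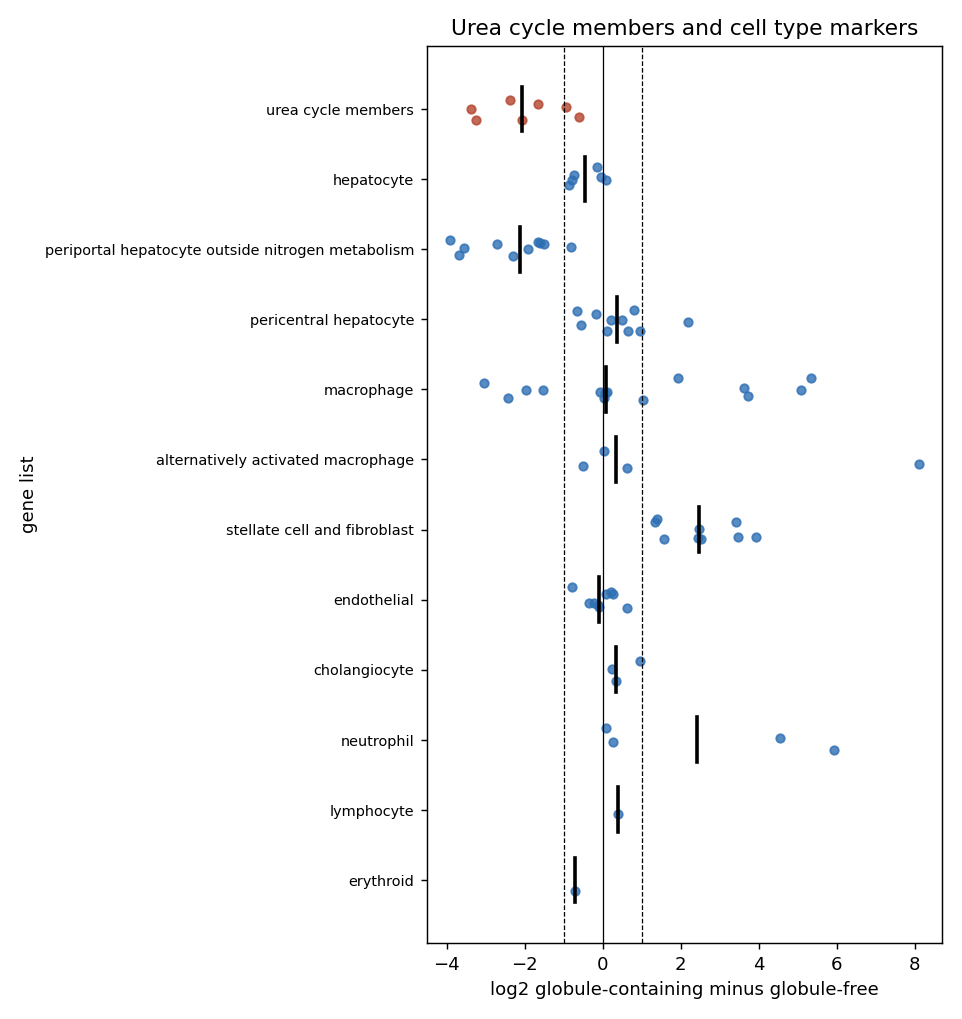
Difference between the arrays (horizontal axis, log2 globule-containing minus globule-free) for the 7 members (red) and for each gene above the floor and below the ceiling in 11 marker lists (blue), with the median of each list as a black bar and dashed lines at 2-fold. The members and the periportal markers overlap, with medians of -2.06 and -2.12, while stellate cell markers lie to the right, with a median of 2.48.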

How the data were processed

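Globule-containing and globule-free liver areas of PiZ mice were compared, with 1 array each. Per the labels' protocols, 50 ng of RNA was amplified with the NuGEN Ovation WTA System V2. The authors deposited 1 log2 value per probe set in a table of 72688. The Transcriptome Analysis Console had been used, per the submitters' processing notes. The log2 scale was read from the values. Normalization and build are not stated in the sources used here.

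Probe sets were named from the platform annotation. Of 32750 with a listed gene, 30604 named 1 gene and 2146 several. RefSeq identifiers matched 22818 and updated 827 symbols. Several probe sets of a gene were averaged, which gave 30142 genes. The floor of 4.76 is the median over probe sets naming 1 gene. Background, taken as the 95th percentile of 1530 probe sets of olfactory and vomeronasal receptors, was 5.02 on the globule-free and 4.85 on the globule-containing array. Genes within 0.2 of the ceiling on both arrays were left out of the medians and counts of gene lists. Medians and shares over all genes, also by signal, kept these 21 genes. The number of arrays limits the precision.

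No p-value or SD was computed, since no residual degrees of freedom exist. Gene averaging, quantile and loess scaling and the fold threshold were run on simulated data with a set difference. The ceiling rule and the gene lists were not part of that run. The members and lists were chosen with earlier results of these data known. All members are named, and of each list the genes with the largest differences. Genes outside this rule, such as Mdh2, were chosen after their values were seen. Alternatives concerned scaling, floor, probe sets, dim and bright values and the fold threshold. Software was Python 3.11.15, matplotlib 3.10.9, statsmodels 0.14.6, pandas 2.3.3 and numpy 2.4.6.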

Additional observations from a re-analysis of the deposited data

How the results depend on the processing

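The count of 5 of 7 members at least 2-fold lower held under loess correction, against 6.32% of all genes. It also held with the brightest probe set per gene (5.27% of all genes) and with dim values raised to background (2.53%). The same was so with no floor (2.87%) and with the floor at the 75th percentile (8.01%). Beyond loess, the settings just named left each member's value unchanged, so they do not test the count. Each of the 7 had 1 probe set, lay above background on both arrays and passed each floor. The count was 6 after quantile normalization and after centring on the medians, where Nags passed 2-fold. Of all genes, 6.40% and 6.59% were then at least 2-fold lower. The count was 4 of 6 without Cps1, the member with a mean of 16 or more, against 5.26% of all genes. At 1.5-fold it was 7 of 7, where 11.9% of all genes were. No member was at least 2-fold higher under any of the alternatives run. The members' median was -2.30 after quantile normalization, -2.29 after loess correction, -1.67 with the probe sets of Ass1 and Glud1, -1.87 without Cps1 and -1.61 when centred on the hepatocyte markers, which was added after seeing the data and put 17.3% of all genes 2-fold or more above 0 and 2.68% below it. Under the alternatives run, Arg1 ranged from -3.64 to -2.92, Nags from -1.04 to -0.49 and Slc25a15 from -0.84 to -0.16. Of 160 medians of gene lists under the alternatives, 52 shifted by more than 0.17, the gap between probe sets of a gene. In 7 lists the median changed sign. That of the urea and water channels went from 1.08 to -0.17 with dim values raised and to -0.062 with no floor, since more genes at background then enter. With no floor, the alternatively activated macrophage median was -0.25 and the lymphocyte median -0.022. Both were -0.17 with dim values raised, which is the gap between the backgrounds of the arrays. The erythroid median was 0.45 with probe sets of several genes, the macrophage median -0.023 after centring on the medians, and the regulator and endothelial medians 0.28 and 0.35 when centred on the hepatocyte markers. No paired analysis was possible because each group is 1 array.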

Other observations

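Beside Cps1, some other genes with a mean log2 signal of 16 or more had a lower signal where globules were present. With Cps1 included, 28 of 326 (8.59%) were at least 2-fold lower. That share was 5.26% of all genes above the floor and 11.8% of those with a mean from 12 to 16. The median difference of the 326 genes was 0.22. The examples that follow were chosen after their values were seen. Car3, a cytosolic carbonic anhydrase, had 17.79 in globule-free and 15.49 in globule-containing areas, a difference of -2.29. Uox, urate oxidase, which degrades uric acid, had 17.76 against 15.56, a difference of -2.19. Tdo2, the tryptophan dioxygenase, differed by -1.83, from 17.83 in globule-free areas. Each lay further below the ceiling on the globule-free array than Cps1 did.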
